A study of Homo sapiens with 3 samples.

Results

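Metallothionein genes of PANC-1 cells, an established human pancreatic ductal carcinoma line, were examined after exposure to cantharidin or okadaic acid. The members were MT1A, MT1B, MT1E, MT1F, MT1G, MT1H, MT1M, MT1X, MT2A and MT3, fixed by name. All 10 genes were found through the transcript accessions of the array, with 12 probes, among 19699 genes and 25705 probes that could be named.

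The study compared 3 groups of PANC-1 cells with 1 array each, namely untreated control cells, cells given 20 µM cantharidin and cells given 20 µM okadaic acid, both agents for 24 h. The dose of okadaic acid is that of its sample label, whereas the treatment text can also be read as giving a dose for cantharidin alone. Cantharidin is a blister beetle toxin and okadaic acid a polyether toxin of marine dinoflagellates, and both inhibit serine/threonine phosphatases, PP2A among them. All groups were grown in DMEM with fetal calf serum and antibiotics, and no vehicle is named for the control. Total RNA was labelled with Cy3 and hybridised to 1-colour oligonucleotide arrays, whose spot brightness (intensity, in scanner units) rises with the amount of the matching transcript.

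Metallothioneins are small, cysteine-rich proteins of the cytosol and nucleus that bind zinc and copper, and also cadmium, through clusters of thiolate groups. They buffer free zinc, and their genes are switched on by heavy metals through MTF1, a zinc-sensing transcription factor that binds metal response elements in their promoters. Glucocorticoids and oxidants also induce several of them. The MT1 genes and MT2A are expressed in many tissues, whereas MT3 was first known from brain as a neuronal growth inhibitory factor. In a bulk sample, less RNA per cell and fewer cells that express a gene cannot be told apart.

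Metal response elements are the best known shared control element of these genes, so the promoters of the members that could be matched are printed first. RefSeq promoters of build GRCh38.p14 were found for 4 of the 10 members, all on the plus strand of chromosome 16, and the 250 bases upstream of the start of each gene are shown 5′ to 3′. The stretches are chr16:56608334-56608583 for MT2A, chr16:56651636-56651885 for MT1B, chr16:56669564-56669813 for MT1H and chr16:56682220-56682469 for MT1X. Capitals mark the core of the metal response element, TGCACNC or TGCGCNC, on either strand.
MT2A: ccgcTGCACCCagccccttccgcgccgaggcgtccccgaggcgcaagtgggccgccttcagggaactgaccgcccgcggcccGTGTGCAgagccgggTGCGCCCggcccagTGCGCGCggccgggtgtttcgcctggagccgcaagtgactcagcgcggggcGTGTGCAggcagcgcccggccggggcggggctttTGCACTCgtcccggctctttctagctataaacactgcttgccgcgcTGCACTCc
MT1B: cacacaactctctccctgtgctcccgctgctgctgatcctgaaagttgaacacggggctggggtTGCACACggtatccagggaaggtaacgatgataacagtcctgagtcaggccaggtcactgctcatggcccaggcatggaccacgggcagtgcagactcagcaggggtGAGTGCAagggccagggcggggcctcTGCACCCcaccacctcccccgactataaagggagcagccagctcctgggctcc
MT1H: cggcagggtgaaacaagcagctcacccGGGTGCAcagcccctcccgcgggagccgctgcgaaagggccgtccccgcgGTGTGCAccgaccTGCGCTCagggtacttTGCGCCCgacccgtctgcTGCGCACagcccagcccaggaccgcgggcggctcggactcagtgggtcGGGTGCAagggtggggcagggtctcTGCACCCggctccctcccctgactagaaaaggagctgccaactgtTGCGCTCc
MT1X: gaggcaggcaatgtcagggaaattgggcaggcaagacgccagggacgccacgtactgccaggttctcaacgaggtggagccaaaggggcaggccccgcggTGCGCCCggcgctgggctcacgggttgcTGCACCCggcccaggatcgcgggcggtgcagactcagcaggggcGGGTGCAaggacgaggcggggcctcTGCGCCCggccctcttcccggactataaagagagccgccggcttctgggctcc

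The core was found 7 times in MT2A, 3 times in MT1B, 8 times in MT1H and 4 times in MT1X. Of all 35116 promoter stretches of the same length, 24.8% held at least 1 core, 1.58% held at least 3 and 0.0513% at least 6. Each of the 4 promoters held a core on the given strand that began 53 or 54 bases upstream of the start. A TATA box (TATAAA) stood in MT2A, MT1B and MT1X and in 10.7% of all promoters, and MT1H held none. The AP-1 site TGACTCA occurred once in MT2A and once in MT1B, and in 4.20% of all promoters. The GC box GGGCGG occurred in all 4 members (2 times in MT2A and in MT1X) and in 42.6% of all promoters, and 1 of the GC boxes of MT1X overlapped a core. A match of letters is a description of the sequence and not a measured binding site.

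**Figure D1:**
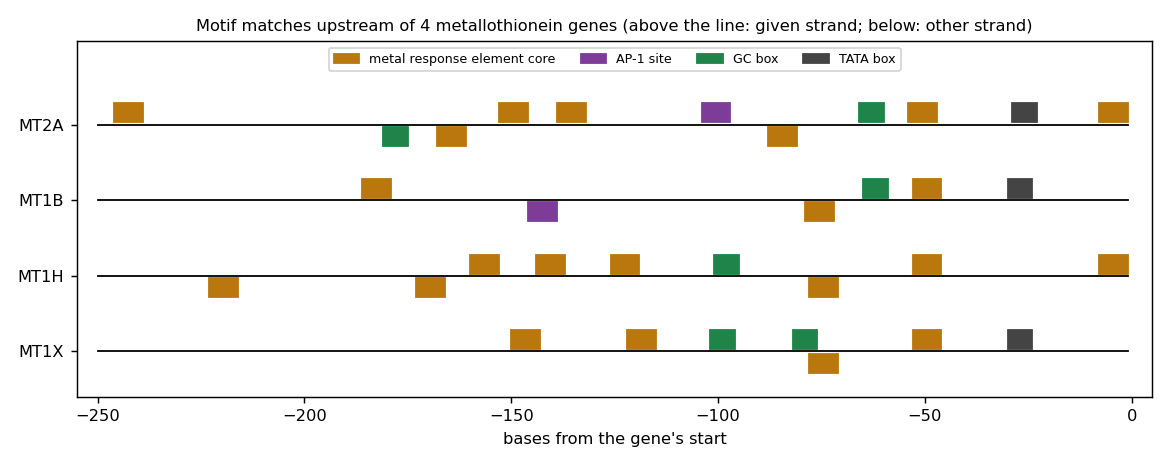
Matches of the metal response element core, the AP-1 site, the GC box and the TATA box in the 250 bases upstream of MT2A, MT1B, MT1H and MT1X, by distance in bases from the start of the gene. Boxes above a line are on the given strand and boxes below it on the other strand, and MT1H and MT2A hold the most cores, at 8 and 7.

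Of 34041 probes used, between 23071 (okadaic acid) and 25103 (cantharidin) were well above background on an array, and the 75th percentile of intensity lay between 713 and 936. No transcript spot was saturated. The epithelial markers KRT7, KRT8, KRT18, KRT19, SOX9 and EPCAM were well above background in control cells, as was VIM, which many carcinoma lines express. ALB and CPA1 (hepatocyte and acinar markers) were well above background on no array, and of 3 probes for PECAM1, an endothelial marker, 1 was, at 45.0 in control cells. Other markers of those types and of leukocytes and islets were measured in control cells, with CD3E at 259, CDH5 at 411 and GCG at 200 below the 75th percentile of 784, and INS at 792 and CD68 at 2945 above it. Each gene below is given as intensities on the 3 arrays, and then as log2 differences between arrays, each taken relative to the 75th percentile of its own array. With 1 array per group no difference has a replicate check and no test was possible. The only error available is the spot noise within an array, taken from the probes with 10 spots that were nearest in brightness. In control cells the 6 member probes above 100000 drew on the same brightest of these and share 1 spot SD, 0.06. MT2A, at 365329, was brighter there than any probe with 10 spots (200838 at most), so its spot SD is that of dimmer probes. For the members the spot noise amounted to an SD of 0.10 to 0.21 for a log2 difference between cantharidin and control. For okadaic acid and control it was 0.08 to 0.22, and variation between cultures was not measured.

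With cantharidin, 8 of the 10 metallothionein genes (all but MT1G and MT3) had a signal at least 1.5-fold below that of control cells and none was at least 1.5-fold above it, with a median log2 difference of -2.78. Over all 16644 genes compared, 34.1% were lower and 27.5% higher by this measure, and the median was -0.16. With okadaic acid, 8 members (MT1A, MT1B, MT1E, MT1F, MT1H, MT1M, MT1X and MT2A) were at least 1.5-fold lower and none higher, with a median of -1.80. The background of that comparison was 28.8% lower and 28.1% higher of 16166 genes, with a median of 0.01. All 10 members were well above background on all 3 arrays with the probe that stood for the gene. Both comparisons used the same control array, so they are not independent of each other.

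MT1M encodes a metal-binding isoform of the MT1 group. Its probe read 42512 in control cells, 743 with cantharidin and 7902 with okadaic acid. The signal was thus lowest with cantharidin and intermediate with okadaic acid. The log2 difference from control was -5.70 with cantharidin (52.0-fold lower, spot SD 0.13) and -2.68 with okadaic acid (6.42-fold lower, spot SD 0.08). Only 13 of 16644 genes had a more negative difference under cantharidin, whereas 453 of 16166 genes did under okadaic acid.

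MT1E, also of the MT1 group, read 102223 in control cells, 8959 with cantharidin and 29441 with okadaic acid. Its log2 difference was -3.37 (10.4-fold lower) with cantharidin and -2.05 (4.14-fold lower) with okadaic acid. From the most negative cantharidin difference upward, the members stood in the order MT1M, MT1E, MT1X, MT1H, MT1B, MT1F, MT1A and MT2A. MT3 and MT1G followed, with positive differences. The neighbours MT1H and MT1B, and MT1F and MT1A, differed by less than the spot SD. Under okadaic acid, MT1H stood between MT1M and MT1E.

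MT1A, MT1B, MT1H and MT1X had a like pattern. MT1A read 189403 in control, 27764 in cantharidin and 63912 in okadaic acid cells, which gave log2 differences of -2.63 and -1.82. MT1B read 138056, 16982 and 47173 in the same order, with differences of -2.88 and -1.80. In these genes the cantharidin signal was lowest, and the okadaic acid signal lay between it and control. The brighter MT1H probe read 154435, 18428 and 40125 (-2.93 and -2.20), and the brighter MT1X probe read 143099, 14018 and 49103 (-3.21 and -1.80). As folds, the 4 genes were between 6.20-fold (MT1A) and 9.28-fold (MT1X) lower with cantharidin, and between 3.48-fold (MT1X) and 4.59-fold (MT1H) lower with okadaic acid. The spot SD of these differences was 0.10 for cantharidin and 0.09 for okadaic acid, so that differences of MT1A, MT1B and MT1X from control under okadaic acid (-1.82, -1.80 and -1.80) lay within spot noise of each other.

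The MT1F probe read 1649 in control cells, 236 with cantharidin and 742 with okadaic acid. Its log2 differences were -2.67 (6.35-fold lower, spot SD 0.16) and -1.41 (2.65-fold lower, spot SD 0.10). The order of the 3 arrays was that of the other MT1 genes above.

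MT2A, which encodes the main isoform in many cell types, read 365329 in control cells, 136034 with cantharidin and 251931 with okadaic acid. The log2 differences were -1.29 (2.44-fold lower) and -0.79 (1.73-fold lower), each with a spot SD of 0.10, and were smaller than those of the MT1 genes named above. Under okadaic acid the call was lost in 3 alternatives, with -0.57 in the deposited normalized table, -0.54 without scaling and -0.55 with quantile normalization. The control spot was below the saturation value of the scanner, and whether the probe still read in proportion to its transcript at this brightness was not tested.

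MT1G and MT3 did not reach 1.5-fold against control under either agent. MT1G read 113 in control cells, 152 with cantharidin and 164 with okadaic acid, all near the floor of the arrays. These signals were 3.22, 6.93 and 2.82 times the dimmest signal that passed as well above background on the respective array. Its log2 differences were 0.57 (spot SD 0.21) and 0.28 (spot SD 0.22), and the first passed 1.5-fold in 4 alternative settings, to at most 0.71. MT3 read 8755, 8969 and 7297, with log2 differences of 0.17 and -0.52 and a spot SD of 0.10 and 0.08. MT3 under okadaic acid passed 1.5-fold with median scaling only, at -0.64. MT1G and MT3 were the only members with a cantharidin signal above the scaled control signal.

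**Figure D2:**
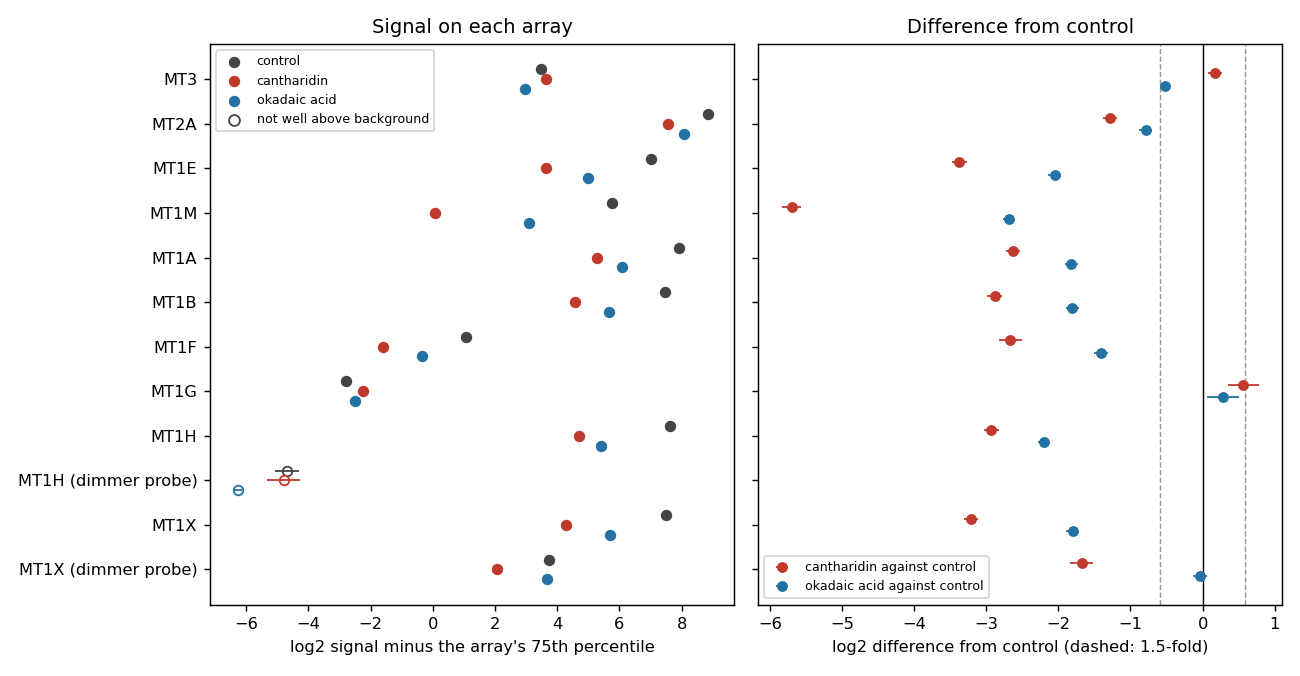
Left, log2 signal of each of the 12 metallothionein probes on each of the 3 arrays minus the 75th percentile of the array, with open points for signals not well above background. Right, log2 difference of each agent from control, with dashed lines at 1.5-fold and bars for the spot SD on both sides. MT1M lies furthest to the left at -5.70 under cantharidin, and MT3 and MT1G lie between the dashed lines.

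For 2 genes a second probe was on the array. The dimmer MT1X probe read 10359 in control cells, 2951 with cantharidin and 12049 with okadaic acid. It gave -1.67 with cantharidin (3.19-fold lower, spot SD 0.16) and -0.04 with okadaic acid (1.03-fold, spot SD 0.09). The probes of MT1X therefore shared the direction under cantharidin but differed under okadaic acid, where the brighter probe was 3.48-fold lower, and the median over both probes was -0.92. The other MT1H probe read 30.5, 25.5 and 12.2 and never stood well above background, so that it gives no fold. By probes, 9 of 11 compared were at least 1.5-fold lower with cantharidin (33.0% of all probes) and 8 of 11 with okadaic acid (27.7% of all probes). The coding sequences of the MT1 genes are very similar. Probe sequences were not used here, and whether one MT1 transcript also binds the probes of other MT1 genes was not tested, so the like values of MT1A, MT1B, MT1E, MT1H and MT1X may not be separate measurements.

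Set among all genes under cantharidin, 8 members lay on the low side, whereas 11988 of 16644 genes lay below MT1G and 10343 below MT3. Between 326 (MT1E) and 748 (MT1A) of 16644 genes had a more negative difference than the MT1 genes other than MT1M and MT1G, while 2860 did for MT2A. Under okadaic acid, 4975 of 16166 genes lay below MT3 and 9959 below MT1G, while 852 (MT1H) to 2031 (MT1F) lay below those MT1 genes, and 3791 lay below MT2A. Large differences of either sign were common in this experiment, as the background shares above show.

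**Figure D3:**
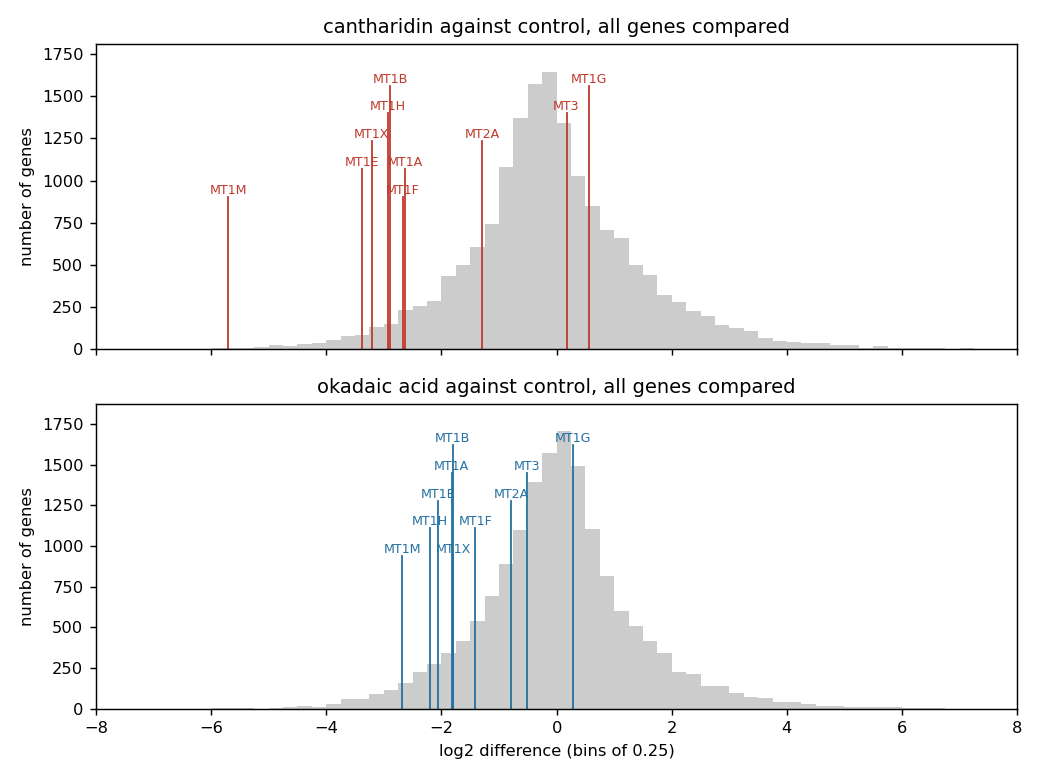
Number of genes in bins of 0.25 of the log2 difference from control (grey), with a vertical line for each metallothionein gene, for cantharidin (top) and okadaic acid (bottom). Line heights are staggered for the labels and carry no value. Under cantharidin the lines of 8 members lie left of the median of all genes, from -5.70 (MT1M) to -1.29 (MT2A, with 2860 of 16644 genes lower).

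The agents were also set directly against each other at the labelled 20 µM and 24 h, without the control array. Metallothionein signals were higher with okadaic acid than with cantharidin for 7 of the 10 genes at 1.5-fold, and MT3 was lower. Over all 16200 genes, 29.5% were higher and 22.3% lower by that fold, and the median was 0.13 against 0.94 for the members. MT1M showed the largest difference, at 3.02 (8.09-fold higher, spot SD 0.14), and 171 of 16200 genes had a higher one. The next were MT1X at 1.41, MT1E at 1.32, MT1F at 1.26 and MT1B at 1.08, followed by MT1A at 0.81 and MT1H at 0.73. The difference between MT1X and MT1E lay within the spot noise of 0.10 for each, as did that between MT1A and MT1H. MT2A differed by 0.50 (1.41-fold) and MT1G by -0.28 (1.22-fold), both short of 1.5-fold. MT2A passed it in the deposited table (0.60), without scaling (0.89) and with quantile normalization (0.71), which made 8 genes higher, and MT1H fell short of it with median scaling (0.58), which left 6. MT3 was 1.61-fold lower with okadaic acid (-0.69, spot SD 0.10). The dimmer MT1X probe gave 1.64, close to the 1.41 of the brighter probe. Without scaling between arrays, MT1G turned to 0.11 and MT3 came to -0.30, so that no member was then at least 1.5-fold lower.

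The members lie in 1 cluster on chromosome 16, in the order MT4, MT3, MT2A, MT1L, MT1E, MT1M, MT1JP, MT1A, MT1DP, MT1CP, MT1B, MT1F, MT1G, MT1H, MT1IP and MT1X by the RefSeq annotation. Of 8 other metallothionein loci listed, some of them on other chromosomes, a probe was matched for 4, all in the cluster. MT1L, a transcribed pseudogene, read 197968 in control, 25935 in cantharidin and 64562 in okadaic acid cells, with log2 differences of -2.79 and -1.87. Whether its probe also binds MT1 transcripts was not tested. MT1IP, another pseudogene, read 646, 341 and 556 (-0.78 and -0.47). MT1DP read 131 in control cells and was not well above background with either agent, so that it was at least 5.43-fold lower with cantharidin and at least 2.69-fold lower with okadaic acid. These loci thus had lower signals with both agents, though MT1IP was short of 1.5-fold under okadaic acid. With MT1DP at its bound, the median of these loci moved from -2.79 to -2.44 with cantharidin and from -1.87 to -1.43 with okadaic acid, and with normexp background correction it was -1.13 and -1.09. The MT4 probe, for a gene known from stratified epithelium, was on no array well above background. MT1G, whose scaled signal was not below that of control, lies between MT1F and MT1H, at -2.67 and -2.93 with cantharidin.

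Genes that flank the cluster served as a comparison. For this list and each list below, the shares over all genes compared are the background. They were 27.5% higher and 34.1% lower with cantharidin, and 28.1% higher and 28.8% lower with okadaic acid. From here on, a pair of values without a unit is the log2 difference from control with cantharidin and then with okadaic acid. Of 7 such genes, 1 was at least 1.5-fold higher and 2 were lower with cantharidin (median -0.17), and 2 were higher and 2 lower with okadaic acid. The okadaic acid median was -0.09, or 0.12 with dim signals at the floor of their array. The cantharidin median was the value of NUDT21, whose brighter probe gave -0.17 and 0.24. Its dimmer probe gave -2.32 and -1.10, past 1.5-fold with both agents, so these counts and medians depend on the probe. BBS2, a subunit of the BBSome of cilia, lies next to MT4 and read 2118, 162 and 199, with differences of -3.57 and -3.67. OGFOD1, a ribosomal protein hydroxylase, was at 1.10 and 1.73. NUP93, a nuclear pore component on the other side of the cluster, was at -1.30 and -1.23. HERPUD1, a protein of endoplasmic reticulum degradation, was at 0.56 and 1.0. The flanking genes thus had values of both signs, with the neighbour BBS2 lower than every member except MT1M under cantharidin.

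**Figure D4:**
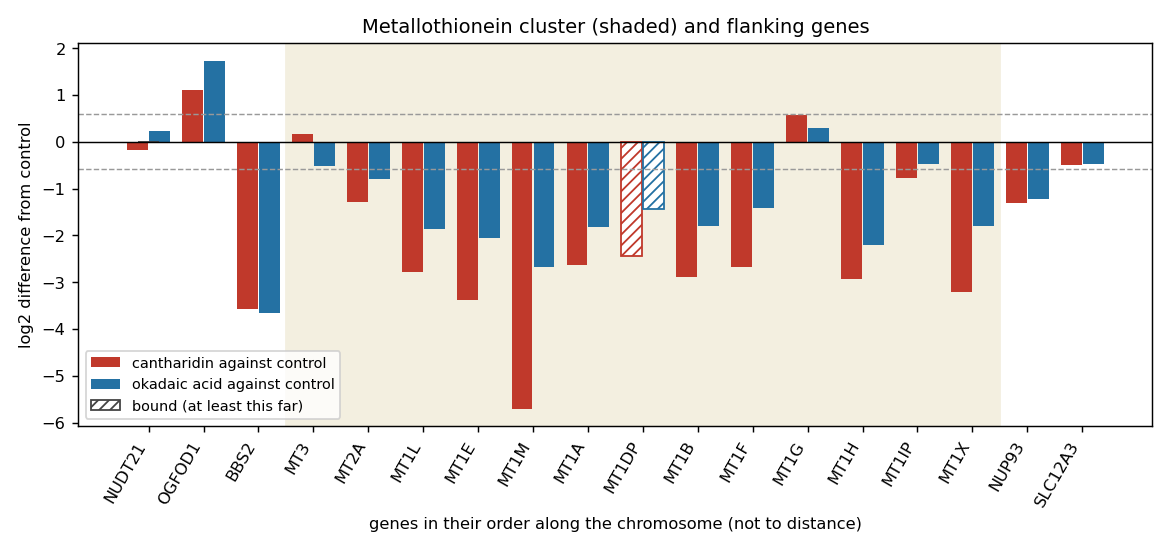
Log2 difference from control with cantharidin and okadaic acid for metallothionein loci (shaded) and flanking genes in chromosomal order, with equal spacing in place of distance and dashed lines at 1.5-fold. Hatched bars are bounds (MT1DP), and MT3 and MT1G are the shaded loci whose cantharidin bars point up, at 0.17 and 0.57.

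Genes that handle the metals bound by metallothioneins were read next, beside the same background shares. These were 27.5% higher and 34.1% lower with cantharidin, and 28.1% higher and 28.8% lower with okadaic acid. Among the SLC30 genes, listed here as zinc exporters, 9 of 10 could be compared. With cantharidin 1 was at least 1.5-fold higher and 5 lower (median -0.73), and with okadaic acid 1 was higher and 4 lower (median -0.51). With dim signals at the floor of their array these medians were -0.64 and -0.45. Some exporters counted were near the floor. SLC30A4, whose value was the cantharidin median (spot SD 0.60), read 37.6 in control cells. That was 1.08 times the dimmest signal well above background, and with cantharidin it was not well above background. SLC30A6, also counted as lower with cantharidin (spot SD 0.47), was at 1.90 times that signal in control cells and 1.58 times with cantharidin. SLC30A1, which exports zinc across the plasma membrane and is itself a known MTF1 target, read 3417 in control cells, 313 with cantharidin and 1294 with okadaic acid. Its log2 differences were -3.31 (9.91-fold lower) and -1.66 (3.15-fold lower), and it was 3.14-fold higher with okadaic acid than with cantharidin. Its signals had the same order over the 3 arrays as those of most MT1 genes. That order was also seen in SLC39A8, SLC39A11, COX11 and PER1, so it is not particular to SLC30A1. Whether MTF1 had a part in it was not tested. SLC30A9 was at -2.84 with cantharidin and at least 8.94-fold lower with okadaic acid. SLC30A7, which loads zinc into the secretory pathway, was the exporter with higher values, at 1.10 and 0.79, and its other probe was above control by at least 6.64-fold and 9.44-fold. The first of these SLC30A7 probes read 66.6 in control cells, 1.90 times the dimmest signal well above background. The second SLC30A5 probe (2.72 and 1.06) had the opposite sign to the brighter one (-0.73 and -0.81), so the direction for that gene depends on the probe. Without it, 4 exporters were lower with cantharidin and 3 with okadaic acid.

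All 14 zinc importers could be compared. With cantharidin 3 were at least 1.5-fold higher and 6 lower (median -0.45), and with okadaic acid 1 was higher and 5 lower (median -0.08). SLC39A10 was at -3.45 with cantharidin and at least 9.39-fold lower with okadaic acid. SLC39A8, an importer of zinc and manganese, was at -2.84 and -1.74, near the members' medians. SLC39A11 was at -2.48 and -0.88. In contrast, SLC39A5 was at 2.51 and 0.77, and SLC39A9 at 1.95 and 0.22. SLC39A5 was the importer counted as higher with okadaic acid, and its spot SDs were 0.36 and 0.40. It read 38.3 in control cells and 78.1 with okadaic acid, near the floor. These signals were 1.09 and 1.35 times the dimmest signal well above background on the respective array. SLC39A1 was lower chiefly with okadaic acid, at -0.48 and -1.57.

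Among 12 copper handling genes, 2 were at least 1.5-fold higher and 5 lower with each agent (medians -0.36 and -0.26). Over all genes, 27.5% were higher and 34.1% lower with cantharidin, and 28.1% higher and 28.8% lower with okadaic acid. In a list this small, the counts are not read as a result about copper handling. SLC31A1, the copper importer of the plasma membrane, was at 2.63 and 1.63, and its other probe at 0.97 and 0.91. COX11 and SCO1, which deliver copper to cytochrome c oxidase, were lower, at -2.45 and -1.43 and at -1.18 and -1.83. ATP7A, a copper-exporting ATPase, was at -1.25 and -0.89 with its brightest probe, but another probe had the opposite sign (1.02 and 1.47). A further probe, at 112 in control cells, was lower by at least 4.64-fold and 2.30-fold. CCS, the copper chaperone of superoxide dismutase, was at 1.01 and 0.54.

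Factors that act on metallothionein promoters had mixed values. MTF1 read 606 in control, 720 in cantharidin and 1299 in okadaic acid cells, with log2 differences of 0.39 and 0.85, so it was 1.80-fold higher with okadaic acid. HSF1, the heat shock factor, was at 1.40 with cantharidin and -0.31 with okadaic acid, and a second probe gave 1.59 and -0.16. CTCF, a chromatin insulator protein, was at -1.14 and 0.04. Of 6 regulators compared with cantharidin, 2 were at least 1.5-fold higher and 1 lower (median 0.32), although the value of USF1, an E-box factor, is a bound of at least 1.31-fold, which leaves 1 gene higher. With okadaic acid MTF1 and NR3C1 were higher of 5 compared, and none was lower (median 0.33). NR3C1, the glucocorticoid receptor, was at -0.10 and 0.73, but its second probe gave -2.21 and -0.87. NFE2L2 could not be compared, since no array measured its probe well above background.

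Genes of metal and oxidative stress, many of which respond to the agents that induce metallothioneins, had mixed values. With cantharidin 3 of 10 were at least 1.5-fold higher and 4 lower (median 0.06), and with okadaic acid 5 were higher and 1 lower (median 0.63). SLC7A11, the cystine importer, read 239, 5283 and 1915 and was at 4.60 and 2.75. GCLM, a subunit of the enzyme that starts glutathione synthesis, was at 2.51 and 2.73. SRXN1, which reduces oxidised peroxiredoxins, was at 3.30 with cantharidin and -0.22 with okadaic acid, whereas HSPA1B, a heat shock protein, was at -0.23 and 2.10. DNAJB1 was at -1.51 and -0.22 and NQO1, a quinone reductase, at -1.14 and -1.47.

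Of 7 genes known to respond to glucocorticoids, 3 were at least 1.5-fold higher and 4 lower with cantharidin (median -1.05), and 3 higher and 2 lower with okadaic acid (median -0.51). PER1, a clock gene, was at -2.0 and -1.58, and KLF9 at -1.40 and -0.51. TSC22D3, or GILZ, was at 1.44 and 0.65. SGK1, a kinase of ion transport, was at 0.92 and 2.60. DUSP1, a MAP kinase phosphatase, was at -1.30 and 0.59, and ZBTB16 at 1.21 and -0.52.

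**Figure D5:**
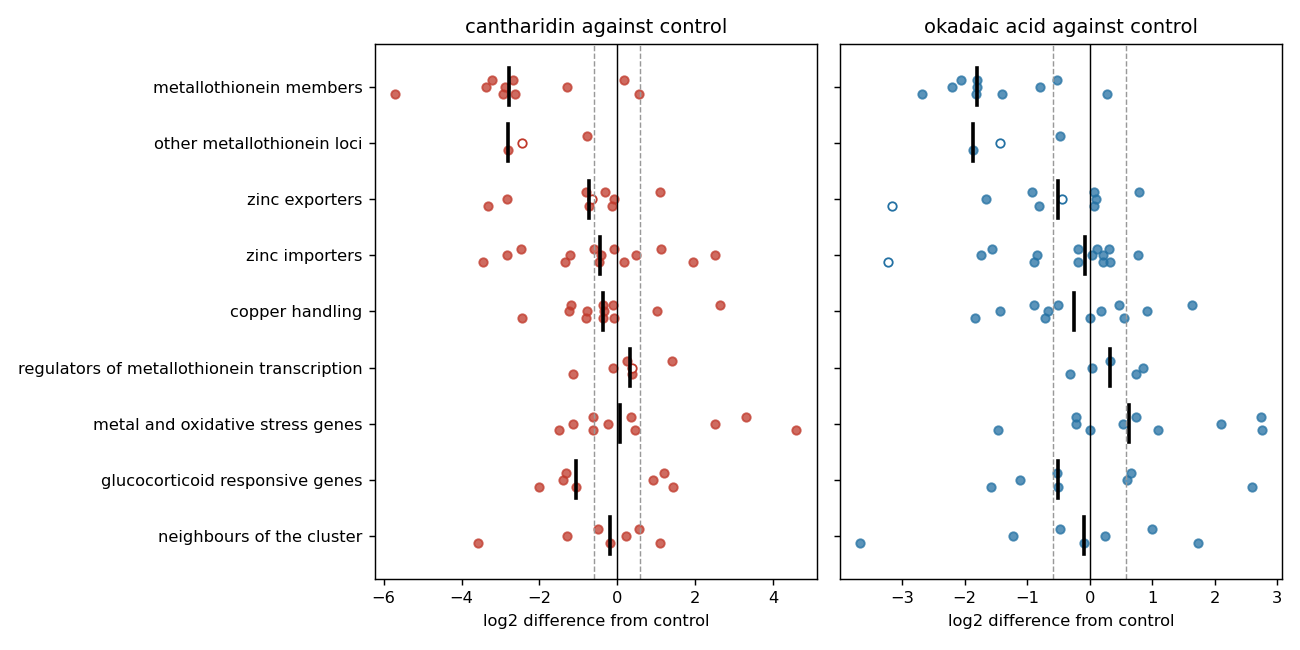
Log2 difference from control of each gene in the metallothionein group and in 8 related lists, with cantharidin (left) and okadaic acid (right). Points are genes, open points are bounds, black bars are medians of the values as measured and dashed lines mark 1.5-fold, and the medians of the 10 members (-2.78 and -1.80) and of the other metallothionein loci (-2.79 and -1.87) lie lowest.

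Genes whose pair of differences lay nearest to the members' medians (-2.78 and -1.80) were found by Euclidean distance over 14212 genes that each of the 3 arrays measured well above background. The 5 nearest were IFITM4P (distance 0.03), EEPD1 (0.06), MT1L (0.07), PAX2 (0.08) and LYPLAL1 (0.09). Each distance was below the spot SDs of the gene's differences (0.14 and 0.12 for IFITM4P, 0.39 and 0.24 for LYPLAL1). The order of the 5 therefore carries no meaning. With the agents, EEPD1 was at 2.64 and 2.59 times the dimmest signal well above background, and LYPLAL1 at 1.72 and 1.70 times. IFITM4P, a pseudogene of the interferon-induced transmembrane family, read 6800, 885 and 2310, with differences of -2.80 and -1.81. The MT1L pseudogene was thus the only other metallothionein locus among them. A second PAX2 probe gave -0.62 and -0.51, short of the values of the first (-2.83 and -1.87). Within a distance of 0.25 there were 40 genes, so many other genes shared this pattern over the 3 arrays.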

How the data were processed

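The authors deposited the scanner output of 3 arrays, made with Feature Extraction 11.0.1.1, as spot intensity, which per the file headers was background-subtracted and detrended within each array. A deposited table of log2 values, already normalized, came with them, and its making is not given in the sources used here. Each array was read in the same scan of 1 slide, and slide position and group cannot be told apart. The number of arrays limits the precision.

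Unflagged spots of a probe were averaged as log2, which left 34041 of 34127 probes, and each array's 75th percentile was subtracted. No replicate test was possible. A probe was compared when well above background on at least 1 of 2 arrays and called at 1.5-fold, the size the study used. If 1 array was not well above background, the fold is a bound ("at least") against the dim signal or, if greater, the array's dimmest signal well above background (35.0, 21.9 and 58.0 for control, cantharidin and okadaic acid). Genes were named by matching accessions without versions to RefSeq transcripts of GRCh38.p14. The array annotation is hg19, so only RefSeq promoters carry coordinates. The probe with the highest mean log2 signal stood for a gene. Spot noise came from the 50 probes of nearest brightness among 999 with 10 spots.

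Named were all members, list genes past 2-fold under an agent (at most 6 a list), MTF1, SLC30A1 and the 5 genes nearest in pattern. Further genes named, chosen after their values were seen, are MT1IP, MT4, HERPUD1, NUDT21, SLC30A4, SLC30A5, SLC30A6, USF1, NFE2L2, NR3C1 and cell type markers. One gene of the lists is not reported here. The members and lists were chosen with earlier results of these data known. Alternatives were other scalings (median, 75th percentile of probes above background on all arrays, quantile, none), normexp correction (offset 50), the deposited table, other filters, the median over probes, dim signals at the floor and a 2-fold threshold. The scaling and the differences between arrays were tested on simulated data, with the same changes planted in both agents. The choice of probe, the bounds, the spot noise and a true difference between the agents were not tested in this way. Python 3.11.15 (numpy 2.4.6, pandas 2.3.3, matplotlib 3.10.9) and R 4.3.3 (limma 3.58.1) were used.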

Additional observations from a re-analysis of the deposited data

How the results depend on the processing

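No paired analysis was possible because each group held 1 array, and leaving out an array was not possible for the same reason. No member's difference from control turned sign under an alternative. The number of members at least 1.5-fold higher with cantharidin became 1 (MT1G) with the deposited normalized table, quantile normalization, median scaling and scaling to probes above background on all arrays. The members' median with cantharidin was -2.65 with the median over probes, -2.91 without scaling and -2.66 with normexp. With okadaic acid it was -1.52 in the deposited table, -1.61 with the median over probes and with quantile normalization, -1.55 without scaling and -1.92 with median scaling. Between the agents it was 1.34 without scaling and 0.79 with median scaling, and the number of members lower became 0 at a 2-fold threshold and without scaling. Over the related lists, the number at least 1.5-fold higher with okadaic acid than with cantharidin was 20, or 34 without scaling. Over all 16200 genes 29.5% were higher by that fold with the main scaling. Their share without scaling was not taken, while their median moved from 0.13 to 0.52, so neither count is read as a result about the lists. The scalings moved the median of all genes as well, to between -0.30 and -0.09 with cantharidin, between -0.11 and 0.26 with okadaic acid and between -0.02 and 0.52 between the agents, so members are best read against that shift. MT1X under okadaic acid depended on the probe. Signal close to background limits MT1G.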
